A study of Mus musculus with 81 samples.

Results

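The genes described here copy DNA or carry cells through mitosis, and their transcripts were followed in 27 groups of mouse macrophages and macrophage progenitors. A list of 49 gene symbols was matched to array probes that name no other gene, and the brightest probe stood for a gene with several. A probe of its own was found for 46 of the 49 genes, of 22180 genes with such a probe in all. The cyclins Ccne2 and Ccnb1 and the condensin subunit Ncapg were not used here. All 46 members were bright enough to be tested, together with 17099 genes in all. Of the members, 25 belong to DNA replication and 21 to mitosis.

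The study sorted cells by flow cytometry from tissues of wildtype and Irf8 knockout mice, and measured their RNA on Affymetrix arrays. Irf8 codes for a DNA-binding regulator of myeloid cell genes. Values are log2 signals, so a difference of 1 is a 2-fold change. Groups held 3 samples each, except wildtype E14 kidney F4/80high macrophages with 2.

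The progenitors came from the yolk sac. They were erythro-myeloid progenitors of wildtype embryos at E8, and the populations A1 and A2 at E9.5 in both genotypes. At E14 and in adults of 6 weeks, both genotypes gave microglia from brain, Kupffer cells and CD11bhigh macrophages from liver, and F4/80high and CD11bhigh macrophages from kidney. Langerhans cells of the skin were taken from adults of both genotypes. The labels give no strain, no sex and no type of Irf8 deletion, and do not say which samples came from separate animals, so the errors measure only the spread between these samples. Wildtype Langerhans cells were GFP+ by their sample titles, which the knockout titles do not state, so that the sorted label and the genotype cannot be told apart there. The signal is an average over sorted cells: fewer cycling cells and less of a transcript per cell cannot be told apart.

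Replication begins when the Mcm2 to Mcm7 helicase is loaded at origins with the help of Cdc6 and Cdt1 and is then switched on by Cdc45 and the GINS complex. In S phase, DNA polymerases and primase copy the strands, ribonucleotide reductase and thymidylate synthase supply the building blocks, and the cyclin-dependent kinase Cdk1 with its A and B cyclins later drives the cell into mitosis. Many of these genes are silent in resting cells and are switched on in proliferating cells through E2F factors at the S phase genes and through MYB and FOXM1 with the MuvB complex at the mitosis genes. Tissue macrophages arise from embryonic progenitors and can keep their numbers by dividing in place.

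Promoters are shown because the members moved together. Reference promoters of RefSeq (GRCm38.p6) were at hand for 38 of the 46 members. Motifs were searched on both strands of the 250 bases before the start. The CCAAT box is found by its own letters. The cell cycle homology region of mitosis genes was searched as TTTGAA and in its variant form as TTCGAA. The E2F motif was searched as TTCCCGC and in its variant form as TTGGCGC. The variant form can share letters with a CCAAT box, which happened in none of the windows shown, and a match describes the letters only, not a bound site. The 5 windows below held the most matches among the 18 members whose window touches no annotated gene. All lie on the minus strand, and capitals mark the matches, also those read on the opposite strand (a CCAAT box then reads ATTGG).
Cdk1: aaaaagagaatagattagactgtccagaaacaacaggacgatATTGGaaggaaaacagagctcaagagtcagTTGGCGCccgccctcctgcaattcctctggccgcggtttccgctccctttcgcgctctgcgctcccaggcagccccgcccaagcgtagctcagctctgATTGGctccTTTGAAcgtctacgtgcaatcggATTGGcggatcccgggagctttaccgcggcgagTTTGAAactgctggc
Ccnb2: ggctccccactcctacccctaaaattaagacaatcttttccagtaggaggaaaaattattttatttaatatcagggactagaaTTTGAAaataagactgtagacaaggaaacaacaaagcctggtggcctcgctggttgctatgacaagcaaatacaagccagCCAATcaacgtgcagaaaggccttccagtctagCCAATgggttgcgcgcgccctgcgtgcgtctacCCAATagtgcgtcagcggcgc
Mcm6: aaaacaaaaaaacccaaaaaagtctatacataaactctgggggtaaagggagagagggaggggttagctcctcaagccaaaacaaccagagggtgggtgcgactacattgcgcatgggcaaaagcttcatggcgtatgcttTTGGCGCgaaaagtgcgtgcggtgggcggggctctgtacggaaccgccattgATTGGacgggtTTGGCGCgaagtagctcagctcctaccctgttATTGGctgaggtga
Cdc20: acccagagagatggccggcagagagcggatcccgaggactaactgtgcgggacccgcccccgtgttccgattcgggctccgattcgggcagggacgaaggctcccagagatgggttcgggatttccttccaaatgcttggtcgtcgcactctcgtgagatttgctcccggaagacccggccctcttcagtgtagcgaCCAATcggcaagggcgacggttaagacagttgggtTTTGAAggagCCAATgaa
Mcm3: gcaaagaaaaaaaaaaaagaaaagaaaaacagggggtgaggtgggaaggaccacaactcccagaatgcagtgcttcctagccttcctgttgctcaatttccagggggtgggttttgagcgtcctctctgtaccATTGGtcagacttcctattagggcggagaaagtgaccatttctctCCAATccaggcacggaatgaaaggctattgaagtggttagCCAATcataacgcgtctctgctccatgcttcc
The Cdk1 window, at chr10:69352913-69353162, held 3 CCAAT boxes, 2 cell cycle homology matches and 1 E2F match. The window of the mitotic cyclin Ccnb2, at chr9:70421555-70421804, held 3 CCAAT boxes and 1 cell cycle homology match. The Mcm6 window, at chr1:128359706-128359955, held 2 CCAAT boxes and 2 E2F matches. That of Cdc20, the activator of the anaphase-promoting complex, at chr4:118437344-118437593, held 2 CCAAT boxes and 1 cell cycle homology match, and that of Mcm3, at chr1:20820313-20820562, held 3 CCAAT boxes.

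A CCAAT box lay in 61.9% of the windows of the 21 replication genes with a promoter and in 88.2% of those of the 17 mitosis genes, against 34.5% of the 27025 promoters of all genes. A cell cycle homology match lay in 19.0% of the replication windows and 47.1% of the mitosis windows, against 17.4% of all. An E2F match lay in 38.1% of the replication windows and 17.6% of the mitosis windows, against 5.71% of all. At least 1 of the motifs was found for 30 of the 38 members with a promoter. The share of all promoters with at least 1 of them was not counted.

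The cells were checked against marker lists before the members were read. Kupffer cell genes averaged 7.83 to 8.08 in wildtype Kupffer cells at E14 and 9.4 to 9.7 in adults, and no group of other cells exceeded 4.99. Langerhans cell genes averaged 7.44 to 7.58 in wildtype and 7.35 to 7.69 in knockout Langerhans cells, and at most 5.19 elsewhere. Microglia genes were highest in the microglia groups, with at most 5.9 elsewhere. The erythro-myeloid progenitor list averaged 5.96 to 6.18 at E8, 7.38 to 7.49 in A1 and 4.94 to 5.1 in A2 of wildtype embryos, while the core macrophage genes were low at E8 (3.32 to 3.51). Irf8 itself was called lower in 4 of 13 knockout populations, with changes from -3.02 to 0.47, so its probe does not check the genotype labels. Among adult wildtype microglia, replicate 1 carried low Xist (2.99, against 10.17 and 10.36) and high Eif2s3y (7.74, against 3.44 and 2.2), so this sample stood apart from the other two. Adult wildtype Kupffer cells had Xist at 2.71 to 3.88 and knockout ones at 9.52 to 9.99, so sex and genotype cannot be told apart in that comparison. In Langerhans cells, Eif2s3y ranged from 1.31 to 2.68 in wildtype and from 4.87 to 7.57 in knockout samples, so sex and genotype cannot be told apart there either. All adult knockout microglia had high Xist (10.56 to 10.73).

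The members were high in every embryonic group and low in every adult wildtype group. The mean of the 46 members was 7.74 at the lowest, 7.83 at the median and 8.19 at the highest of the 15 yolk sac samples. In the 14 wildtype E14 samples it ran from 6.47 over a median of 7.32 to 7.96. The 18 wildtype adult samples lay between 3.59 and 5.79 with a median of 4.51, below every embryonic sample. Knockout samples at E14 had a range of 7.11 to 7.92, and adult knockout samples spread from 3.65 to 7.39 and so reached into the embryonic range. Replication and mitosis genes each showed this order: the replication mean had medians of 7.66, 7.04 and 4.42 in yolk sac, wildtype E14 and wildtype adult samples, and the mitosis mean of 8.0, 7.65 and 4.62.

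**Figure D1:**
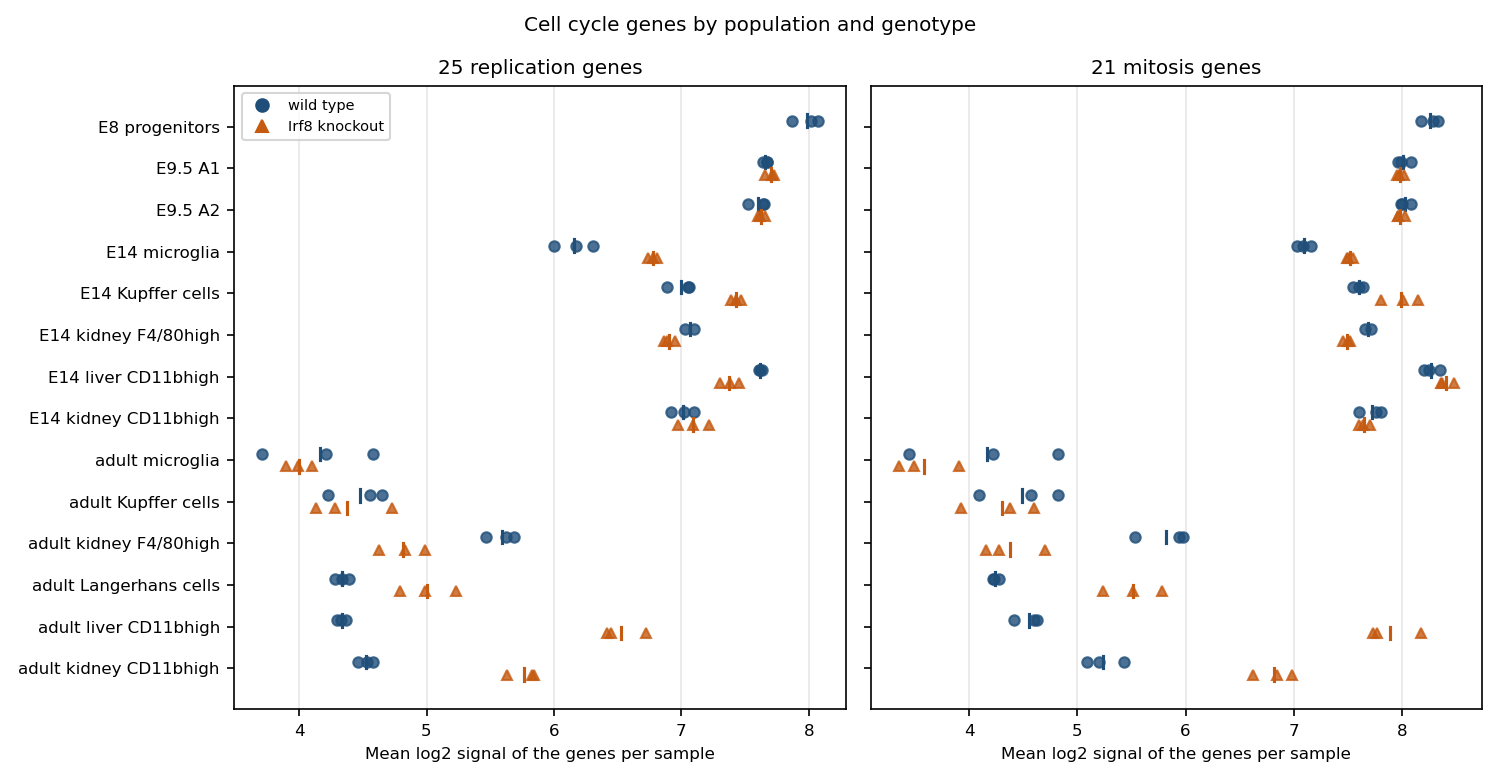
Mean log2 signal of the 25 replication genes and of the 21 mitosis genes in each sample of 14 populations, with wildtype samples as blue circles, Irf8 knockout samples as orange triangles and group means as bars. Adult wildtype samples lie below all embryonic samples, and among adult knockout samples those of liver and kidney CD11bhigh macrophages are the highest.

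For 24 of the 46 members the highest group mean was that of E8 progenitors, and for 14 it was that of knockout liver CD11bhigh macrophages at E14. The lowest group mean was found in adult knockout microglia for 27 members and in wildtype Langerhans cells for 9. The proliferation marker Mki67 had 9.19, 8.91 and 9.34 at E8, and in adult wildtype cells 3.53, 5.11 and 6.14 in microglia, 5.85, 6.44 and 4.7 in Kupffer cells and 7.75, 7.84 and 7.15 in kidney F4/80high macrophages. Cdk1 had 9.45, 9.45 and 9.18 at E8, and 3.56, 5.09 and 5.73 in adult microglia. The helicase subunit Mcm6 had 9.28, 9.21 and 9.43 at E8 and 4.43, 5.55 and 6.12 in adult microglia. In each of these 3 genes every adult wildtype sample named lay below every E8 sample, and replicate 1 was the lowest of the microglia.

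**Figure D2:**
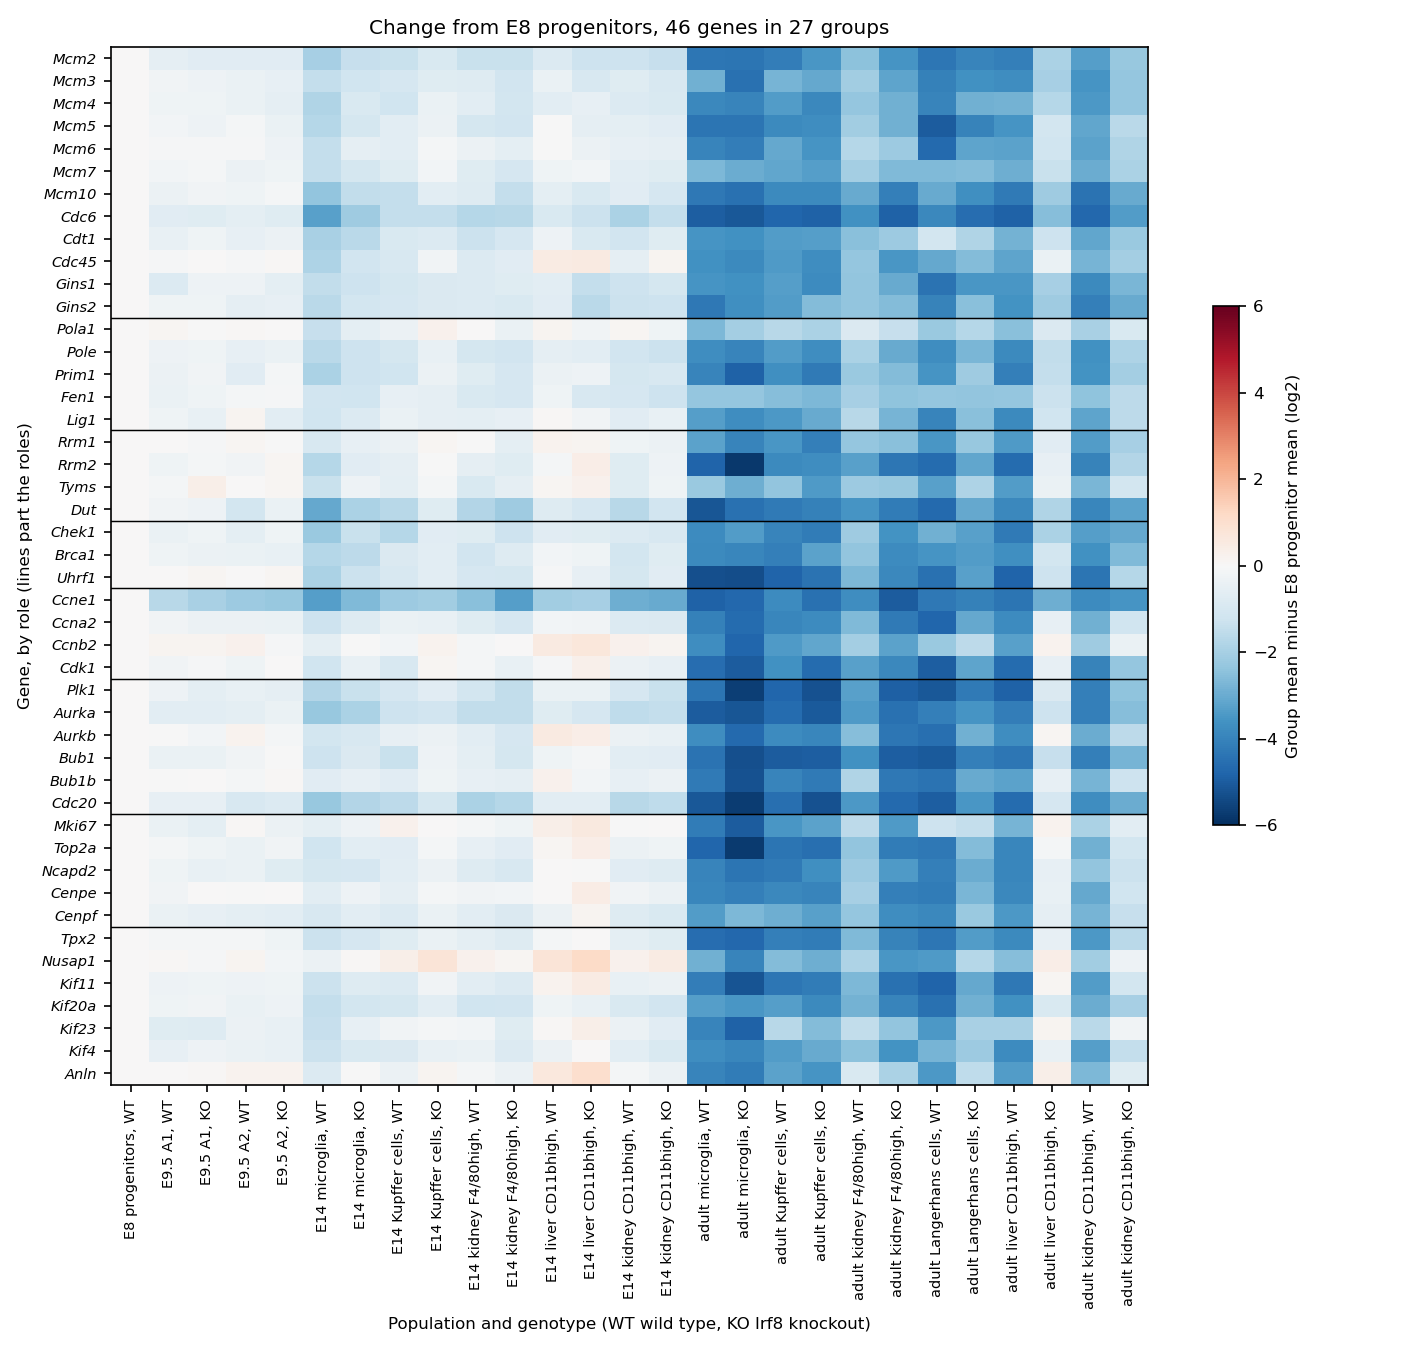
Group mean minus the E8 mean (log2, colour scale from -6 to 6) for the 46 members in rows, parted by role, and the 27 groups in columns. Rows fade from embryonic to adult groups in nearly the same way in every role, with adult knockout CD11bhigh macrophages nearest to the embryonic groups among the adult ones.

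From E8 to A1 the genes held nearly level. A median difference of -0.26 stood beside -0.06 over all genes tested, and 4 of 46 members fell, against 9.88% of all genes that fell; none rose. Cyclin E1 (Ccne1), which opens S phase, fell most, from 8.49, 8.34 and 8.29 at E8 to 7.04, 6.38 and 6.64 in A1 (-1.69, SE 0.25, adjusted p = 8.15e-08), with no overlap. The licensing factor Cdc6 fell from 8.35, 8.18 and 8.28 to 7.66, 7.42 and 7.62 (-0.7, adjusted p = 0.0256). Gins1, a subunit of the GINS complex, and Kif23, a kinesin of cytokinesis, fell by 0.82 and 0.73 (adjusted p = 0.0421 and 0.0474). The number that fell was 13 where the fit held only the compared groups, but 1 to 2 when any sample was left out, 1 with quantile normalization and 2 without the filter on dim probes. Ccne1 passed in all of these.

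From A1 to A2 the median difference was 0 to 2 decimals, and 1 of 46 members fell, against 5.7% of all genes. It was Dut, which removes dUTP from the nucleotide pool, at 8.78, 8.78 and 8.65 in A1 and 7.85, 7.89 and 7.7 in A2 (-0.93, adjusted p = 0.000206). Dut has 2 probes, and with their mean in place of the brighter one the difference was -0.56 and did not pass.

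Of the 3 resident populations compared with A2 at E14, microglia had the deepest fall. Steps to the CD11bhigh gates of E14 were not tested. Their wildtype member means were 7.92 in liver and 7.34 in kidney, beside 7.8 in A2. From A2 to wildtype E14 microglia 41 of 46 members fell and none rose, against 15.2% of all genes that fell (29.2% moved in either direction), with a median of -1.14 (2.2-fold) beside -0.01 over all genes. All 25 replication genes fell (median -1.36), and 16 of 21 mitosis genes (median -0.91). From A2 to Kupffer cells 12 of 46 fell (14% of all genes), and from A2 to kidney F4/80high macrophages 12 of 46 (8.26% of all genes), with medians of -0.56 and -0.39; these 3 comparisons share the A2 samples. The count in Kupffer cells was 33 when only the compared groups were fitted, and 27 with array weights. The kidney count fell to 2 without E14 kidney F4/80high wildtype replicate 1 and to 4 without replicate 2, the only samples of that group, and to 7 and 6 without A2 wildtype replicates 1 and 2.

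In microglia all 12 licensing genes fell, with a median of -1.39. Cdc6 went from 7.77, 7.64 and 7.62 in A2 to 5.36, 4.88 and 4.86 in E14 microglia (-2.65, SE 0.24, 6.27-fold, adjusted p = 4.94e-14), with no overlap. Mcm10, which helps switch the helicase on, and Cdc45 fell by 2.13 and 1.78 (adjusted p = 2.53e-12 and 1.65e-10). Dut, of the nucleotide supply, fell from 7.85, 7.89 and 7.7 to 5.72, 5.79 and 6.09 (-1.94, adjusted p = 7.48e-13). The 4 nucleotide supply genes had a median of -1.41, the 5 DNA synthesis genes of -1.24, and all 9 fell.

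The mitotic kinases and checkpoint genes fell in 5 of 6 members (median -1.3). Aurora kinase A (Aurka), which builds the spindle poles, went from 8.01, 8.25 and 8.16 to 6.64, 6.23 and 6.51 (-1.68, adjusted p = 3.51e-07). Of the chromosome and kinetochore genes only 2 of 5 passed, with a median of -0.64. Among them Top2a, the topoisomerase that untangles sister chromatids, fell by 0.79 (adjusted p = 0.0457), while Mki67 stood at 9.19, 9.24 and 9.15 in A2 and 8.63, 8.56 and 8.44 in E14 microglia (-0.65, adjusted p = 0.11). Every Mki67 sample of microglia lay below those of A2, but the difference did not pass the test.

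In E14 Kupffer cells 10 of the 12 genes that fell belonged to replication. Mcm10 fell by 1.18 (adjusted p = 1.53e-05), and of the mitosis genes the spindle checkpoint kinase Bub1 fell by 1.14 (adjusted p = 0.00115). Mki67, at 9.25, 9.34 and 9.56 in Kupffer cells, differed from A2 by 0.19 (adjusted p = 0.739). In kidney F4/80high macrophages 9 of the 12 were replication genes, with Cdc6 at -1.13 (adjusted p = 0.00129), and the cytokinesis kinesin Kif20a fell by 0.8 (adjusted p = 0.00929).

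Between E14 and adulthood nearly all members fell in every wildtype population that was measured at both ages. In microglia 46 of 46 fell, against 11.7% of all genes, by a median of 2.47 on the log2 scale (5.54-fold). In Kupffer cells 46 fell (18.3% of all genes) with a median of -2.83 (7.13-fold), and in kidney F4/80high macrophages 45 fell (16.0% of all genes) with a median of -1.55 (2.93-fold). Liver CD11bhigh macrophages had 46 (20.3% of all genes) and the deepest median, -3.51 (11.4-fold), and kidney CD11bhigh macrophages 46 (20.6% of all genes) with -2.53 (5.77-fold). Thus 45 members fell in all 5 populations, a joint count that was not made over all genes. The exception was Pole, the catalytic subunit of DNA polymerase epsilon, in kidney F4/80high macrophages (-0.83, SE 0.33, adjusted p = 0.0529).

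Markers of other cells moved with age in some of these gates. In wildtype liver CD11bhigh macrophages neutrophil precursor genes averaged 9.69, 9.89 and 9.92 at E14 and 4.7, 4.84 and 6.12 in adults. In kidney CD11bhigh macrophages they averaged 7.11, 6.43 and 4.0 at E14 and 3.38, 3.7 and 3.72 in adults, while kidney tubule genes averaged 2.37 to 2.55 and 6.8 to 9.62. In Kupffer cells erythroid genes averaged 7.59, 7.87 and 8.26 at E14 and 3.22, 3.02 and 3.23 in adults. How far these bear on the members' fall was not tested.

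**Figure D3:**
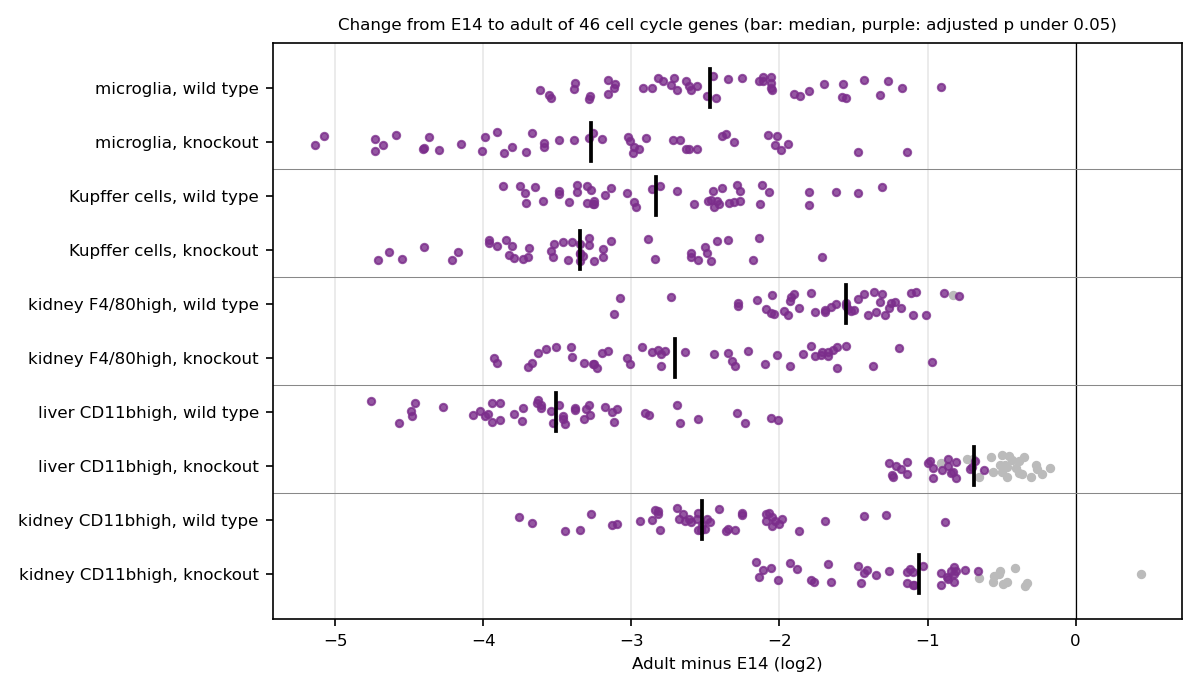
Adult minus E14 difference (log2) of each member in 5 populations, wildtype and knockout, with purple points for adjusted p under 0.05 and bars for medians. Wildtype medians run from -3.51 to -1.55, while knockout CD11bhigh macrophages of liver and kidney have medians of only -0.69 and -1.06.

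Single genes showed the size of this fall. In microglia Bub1b, a kinase of the spindle checkpoint, went from 7.28, 6.99 and 7.05 at E14 to 2.76, 3.4 and 4.52 in adults (-3.54, SE 0.26, adjusted p = 2.51e-17). The helicase subunit Mcm5 went from 6.51, 6.21 and 6.36 to 2.97, 3.8 and 4.23 (-2.69, adjusted p = 5.31e-16). In neither gene did E14 and adult samples overlap, and adult replicate 1 was again the lowest. Mki67 fell 12.3-fold in microglia (-3.62, adjusted p = 3.99e-15).

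In Kupffer cells Mcm5 fell from 7.38, 7.38 and 7.53 to 3.65, 4.59 and 4.52 (-3.18, SE 0.22, adjusted p = 2.23e-19), and Bub1 from 6.5, 6.63 and 6.87 to 3.39, 3.34 and 2.3 (-3.65, adjusted p = 3.52e-17). In kidney F4/80high macrophages Cdk1 fell from 9.24 and 9.2 to 6.51, 5.91 and 5.87 (-3.12, SE 0.32, 8.71-fold, adjusted p = 1.23e-11), and Mki67 by 1.47 (adjusted p = 0.000609). These samples did not overlap either.

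In liver CD11bhigh macrophages Mcm3 fell from 8.56, 8.57 and 8.48 to 5.26, 5.62 and 4.85 (-3.29, SE 0.16, adjusted p = 2.34e-25). Kif11, the motor that pushes spindle poles apart, fell from 8.69, 8.5 and 8.32 to 4.13, 3.88 and 4.06 (-4.48, SE 0.29, 22.3-fold, adjusted p = 1.31e-20). In kidney CD11bhigh macrophages Mcm10 fell from 6.6, 6.53 and 6.73 to 2.77, 3.06 and 2.73 (-3.76, SE 0.22, 13.6-fold, adjusted p = 4.94e-22). The Mcm10 adult samples lie near the brightness floor of 3.041 used to admit a gene.

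Measured from E8, all 46 members fell in all 6 adult wildtype populations, which share the E8 samples. The medians were -4.03 in Langerhans cells (16.4-fold; 30.0% of all genes fell), -3.95 in microglia (15.5-fold; 28.5%) and -3.75 in liver CD11bhigh macrophages (13.4-fold; 30.9%). They were -3.67 in Kupffer cells (12.7-fold; 31.5%), -3.31 in kidney CD11bhigh macrophages (9.92-fold; 30.6%) and -2.35 in kidney F4/80high macrophages (5.09-fold; 28.6%). By role, the microglia medians ran from -4.39 in the mitotic kinases and -4.3 in the cyclins with Cdk1 to -3.32 in the DNA synthesis genes. In kidney F4/80high macrophages the kinases also had a low median of -3.33, against -1.89 in DNA synthesis.

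Among the adult wildtype resident macrophages, those of the kidney kept the most. Compared with the mean of microglia, Kupffer cells and Langerhans cells, 43 of 46 members were higher in kidney F4/80high macrophages and none was lower, against 17.8% of all genes that were higher. The median was 1.4 (2.64-fold), and all 46 differences were above 0. Mcm5, at 6.03, 6.09 and 5.89, exceeded the other three populations by 2.34 (SE 0.18, 5.06-fold, adjusted p = 2.12e-17), and Mcm6 by 2.18 (adjusted p = 8.59e-16). Anillin (Anln), which scaffolds the cleavage furrow, stood at 6.85, 6.4 and 6.46 (2.6 higher, 6.05-fold, adjusted p = 8.03e-15), and Bub1b was 2.41 higher (adjusted p = 1.75e-14). Kidney tubule genes averaged 7.45, 5.19 and 6.57 in these kidney samples, against 2.42 to 2.64 in the other three populations. How far tubule RNA bears on the difference was not tested.

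Microglia were lower than the other three in 30 of 46 members (20.7% of all genes were lower), with a median of -0.77. That count was 18 without adult microglia wildtype replicate 1, the sample that stood apart. Kupffer cells were lower in 12 and higher in 3 members (23.1% and 15.9% of all genes). Without microglia wildtype replicate 1 they were lower in 22, and without Kupffer wildtype replicate 3 in 6. The 3 higher ones were Ccne1 (0.52, adjusted p = 0.0344), Cdk1 (0.6, adjusted p = 0.0359) and Kif23 (1.27, adjusted p = 3.45e-06), each with samples that overlapped those of other populations.

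Langerhans cells had a mixed pattern, with 27 members lower and 5 higher than the other three residents (27.3% and 25.6% of all genes) and a median of -0.66. The 5 higher ones were Cdt1, Mki67, Ccnb2, Mcm10 and Cdc6. Cdt1, which loads the helicase, stood at 7.14, 6.81 and 7.16 in Langerhans cells, against 4.62, 4.38 and 4.88 in microglia, 4.99, 4.68 and 4.83 in Kupffer cells and 5.81, 5.75 and 5.46 in kidney F4/80high macrophages. No sample of these overlapped (1.99 higher, SE 0.18, 3.98-fold, adjusted p = 2.82e-15). Mki67 had 7.84, 7.82 and 8.02 in Langerhans cells and was 1.84 higher than the other three (SE 0.25, 3.57-fold, adjusted p = 3.85e-09), although a kidney sample at 7.84 reached that range.

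Ccnb2 was 0.85, Mcm10 0.68 and Cdc6 0.56 higher in Langerhans cells (adjusted p = 0.000583, 0.000828 and 0.0134). Mcm6 and Cdk1 were lower: Mcm6 had 4.54, 4.96 and 4.41 (-1.76), and Cdk1 had 4.24, 4.69 and 4.37 (-1.1). Mcm3 differed by -1.46 (adjusted p = 4.73e-15) and Kif20a by -1.33 (adjusted p = 6.22e-10). Keratinocyte genes averaged 6.77, 7.0 and 6.85 in these Langerhans samples, against 2.71 to 3.23 in the other three populations, and their part was not tested. The 4 resident comparisons use the same samples and are not independent. Xist was 2.58 to 3.57 in the kidney and 2.71 to 3.88 in the Kupffer samples, but 9.77 to 10.3 in Langerhans cells. In microglia Xist was 2.99, 10.17 and 10.36, so sex and population cannot be fully told apart.

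**Figure D4:**
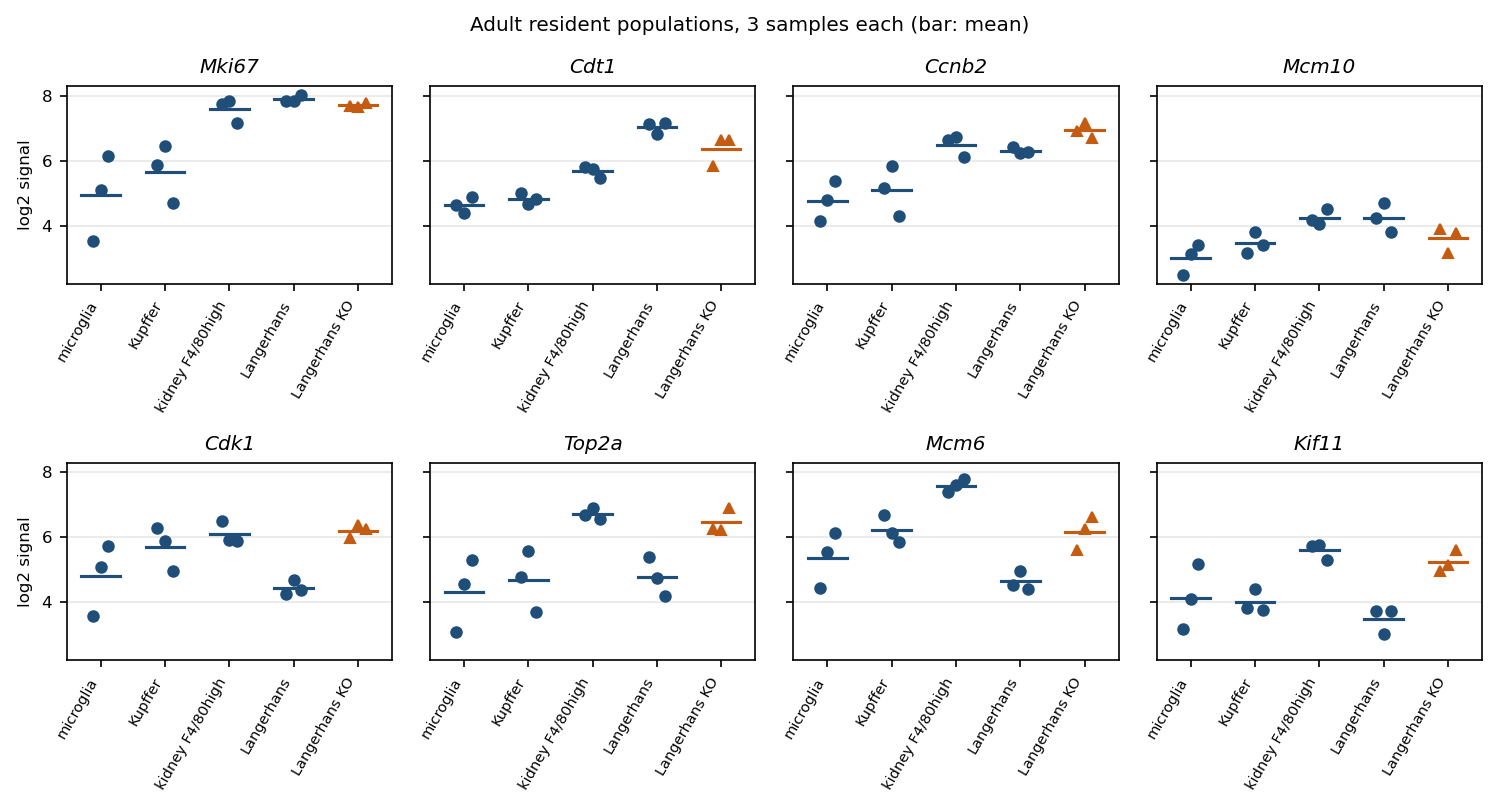
Log2 signal of Mki67, Cdt1, Ccnb2, Mcm10, Cdk1, Top2a, Mcm6 and Kif11 in 3 samples each of adult wildtype microglia, Kupffer cells, kidney F4/80high macrophages and Langerhans cells, and of knockout Langerhans cells. Cdt1 and Mki67 are high in wildtype Langerhans cells while Mcm6 and Cdk1 are low, and Mcm6 and Cdk1 are higher in the knockout cells.

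The sort separated the members in E14 liver and adult kidney, but little or not at all in E14 kidney and adult liver. In wildtype liver at E14, CD11bhigh macrophages were higher than Kupffer cells in 22 of 46 members and lower in none (13.4% of all genes were higher), with a median of 0.61; a fit of the 2 groups alone gave 40 and array weights 37. Cdc45 had 6.32, 6.52 and 6.36 in Kupffer cells and 7.71, 7.87 and 7.99 in CD11bhigh macrophages (1.45, SE 0.21, adjusted p = 4.02e-08). In these samples neutrophil precursor genes averaged 9.69 to 9.92 in CD11bhigh macrophages and 5.53 to 5.9 in Kupffer cells, erythroid genes 4.66 to 5.4 and 7.59 to 8.26, and core macrophage genes 6.26 to 6.47 and 9.42 to 9.72. The share of this in the members' difference was not tested. In E14 kidney none of 46 differed between the CD11bhigh and F4/80high gates (5.81% of all genes did), with a median of 0.01.

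In adult wildtype liver 2 members were higher and 4 lower in CD11bhigh macrophages than in Kupffer cells (15.3% and 12.7% of all genes). Mcm3 had 6.25, 6.2 and 5.99 in Kupffer cells against 5.26, 5.62 and 4.85 (-0.9, adjusted p = 7.65e-06), while Bub1b was 0.74 higher in CD11bhigh macrophages (adjusted p = 0.0287); a fit of the 2 groups alone gave 2 lower and none higher. In adult kidney 27 members were lower in CD11bhigh than in F4/80high macrophages (14.4% of all genes) with a median of -0.82, and 13 when only the compared groups were fitted. Anln differed by -1.78 (adjusted p = 7.59e-07) and Mcm3 by -1.46 (adjusted p = 7.41e-11) there.

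The knockout was set against the wildtype in 13 populations. In adult liver CD11bhigh macrophages all 46 members were higher in the knockout, against 9.19% of all genes that were higher and 7.56% that were lower. The median difference was 2.73 (6.62-fold), with a range of 1.0 to 4.4, beside -0.02 over all genes tested. The mean of the members was 4.4, 4.45 and 4.45 in wildtype and 7.39, 7.04 and 7.03 in knockout samples. At E14 the same gate had 7.79 to 7.96 over both genotypes, above all adult samples.

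**Figure D5:**
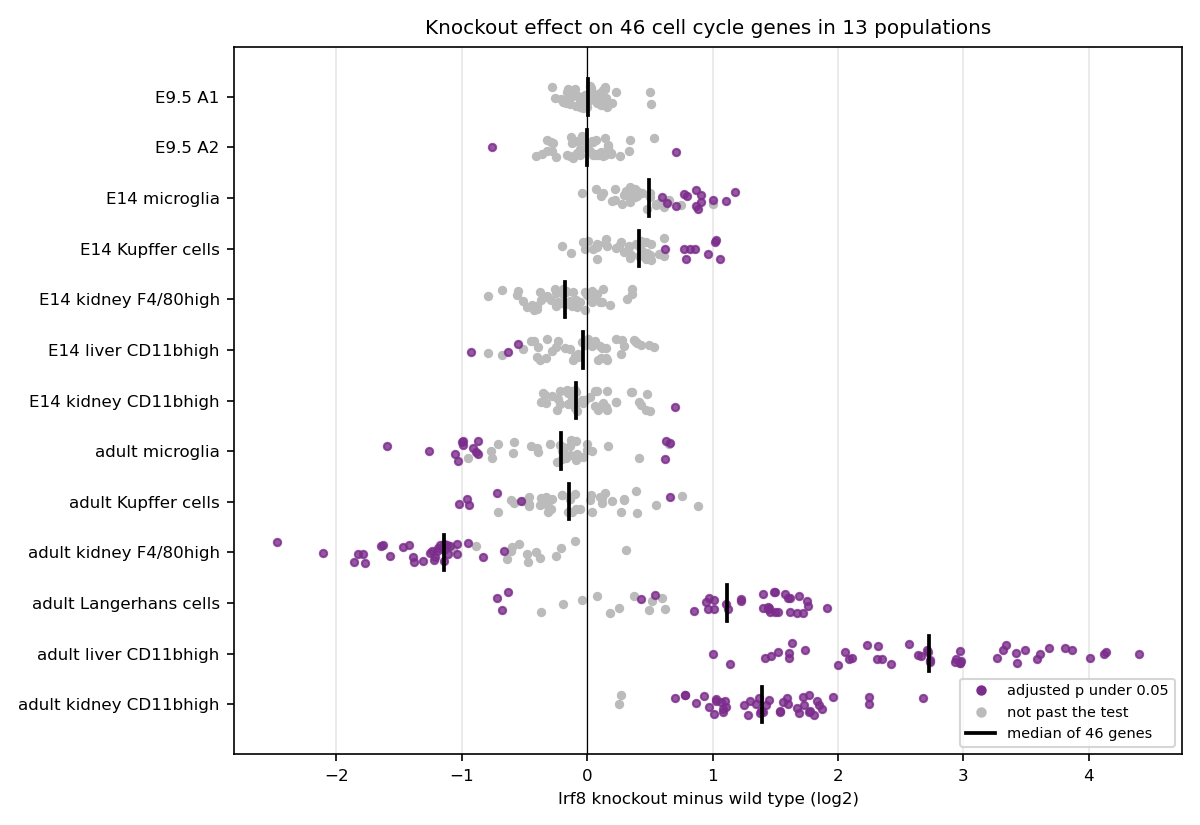
Knockout minus wildtype difference (log2) of each of the 46 members in 13 populations, with purple points for adjusted p under 0.05, grey points for the others and bars for medians. Adult liver CD11bhigh (median 2.73), kidney CD11bhigh (1.4) and Langerhans cells (1.12) lie above 0, and adult kidney F4/80high macrophages (-1.14) below it.

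By role, the medians in adult liver CD11bhigh macrophages were 1.87 in licensing and initiation, 2.35 in DNA synthesis, 2.85 in nucleotide supply, 3.38 in the cyclins with Cdk1, 3.29 in the mitotic kinases and 3.32 in the spindle genes. Cdc45 stood at 4.48, 4.04 and 4.14 in wildtype and 7.19, 6.91 and 6.76 in knockout samples (2.73, SE 0.21, 6.65-fold, adjusted p = 4.08e-17). Uhrf1, which helps copy DNA methylation onto new strands, went from 3.53, 3.7 and 3.9 to 7.34, 7.55 and 7.0 (3.59, 12-fold, adjusted p = 9.84e-15). Rrm2, the small subunit of ribonucleotide reductase, went from 4.97, 5.36 and 4.39 to 9.38, 8.71 and 8.99 (4.12, SE 0.46, 17.4-fold, adjusted p = 7.63e-11). No wildtype sample overlapped a knockout sample in these genes. The DNA ligase Lig1 was 2.66 higher (adjusted p = 6.21e-16), and Mcm5, Mcm6 and Mcm3 were 2.42, 2.0 and 1.74 higher.

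Of the mitosis genes in these cells, Kif11 went from 4.13, 3.88 and 4.06 to 8.76, 8.2 and 8.3 (4.4, SE 0.29, 21.0-fold, adjusted p = 1.43e-19). The condensin subunit Ncapd2 went from 4.36, 4.75 and 4.34 to 8.07, 7.89 and 7.79 (3.43, SE 0.22, 10.8-fold, adjusted p = 8.89e-20). Cdk1, whose promoter is shown above, went from 3.94, 5.14 and 5.12 to 8.98, 8.83 and 8.8 (4.14, 17.6-fold, adjusted p = 2.51e-18). No samples of the genotypes overlapped in these 3 genes. Cdc20 was 12.2-fold higher (3.61, adjusted p = 8.74e-18), Top2a was 3.81 higher (adjusted p = 7.54e-16), and Mki67 rose from 6.44, 6.4 and 6.26 to 9.62, 9.11 and 9.32 (2.98, 7.92-fold, adjusted p = 4.71e-12).

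Markers of other cells moved in the same gate. Neutrophil precursor genes were higher in 11 of 12, with averages of 4.7, 4.84 and 6.12 in wildtype and 10.11, 9.88 and 9.96 in knockout samples. Mature neutrophil genes were higher in 6 of 10 (6.36, 6.69 and 7.24 against 9.47, 9.01 and 9.2), and B cell genes in 7 of 8. Monocyte genes were lower in 3 of 6 (9.51, 9.72 and 10.07 against 8.58, 8.46 and 8.62), as were 4 of 9 core macrophage genes. Their part in the members' rise was not tested.

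Kidney CD11bhigh macrophages of adults changed in the same direction. Of 46 members, 44 were higher in the knockout and none lower, against 6.94% of all genes that were higher and 6.7% that were lower, with a median of 1.4 (2.63-fold); 13 were called when only these 2 groups were fitted. These 44 were also higher in the liver gate, as all 46 members were. The mean of the members was 4.86, 4.75 and 4.94 in wildtype and 6.29, 6.36 and 6.09 in knockout samples, with no overlap. Ccne1 (0.27, SE 0.25, adjusted p = 0.549) and the checkpoint kinase Chek1 (0.25, SE 0.26, adjusted p = 0.604) did not pass.

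Uhrf1 stood at 3.96, 3.47 and 4.96 in wildtype kidney CD11bhigh macrophages and 6.39, 6.98 and 7.04 in knockout ones (2.68, SE 0.31, 6.39-fold, adjusted p = 3.78e-09). Mcm3 went from 5.5, 5.23 and 5.43 to 6.55, 6.42 and 6.93 (1.25, adjusted p = 5.02e-08). Nusap1, which bundles spindle microtubules, went from 5.06, 5.0 and 5.6 to 6.6, 7.07 and 7.31 (1.77, 3.42-fold, adjusted p = 3.29e-08). None of these samples overlapped between genotypes. Kif11 was 2.25 higher (adjusted p = 3.48e-08), Top2a 1.78 (adjusted p = 2.36e-05), Cdk1 1.73 (adjusted p = 1.2e-05), Rrm2 2.25 (adjusted p = 0.000288) and Mki67 1.28 (adjusted p = 0.00202).

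Here too neutrophil precursor genes were higher in 10 of 12, at 3.38, 3.7 and 3.72 in wildtype and 8.31, 7.3 and 7.36 in knockout samples. Mature neutrophil genes were higher in 4 of 10 and lower in 1, and dendritic cell genes higher in 4 of 6. Monocyte genes were lower in 3 of 6, T and NK cell genes in 6 of 9, and kidney tubule genes in 4 of 8 (9.62, 7.19 and 6.8 against 7.03, 5.15 and 6.43). Their part in the members' rise was not tested.

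Kidney F4/80high macrophages of adults moved the other way. In the knockout 32 of 46 members were lower and none higher, against 2.19% of all genes that were lower, with a median of -1.14 (2.2-fold) beside -0.01 over all genes. The count was 19 when only these 2 groups were fitted, and 25 to 32 when any sample was left out. The mean of the members was 5.69, 5.79 and 5.62 in wildtype and 4.86, 4.58 and 4.41 in knockout samples, with no overlap. Mitosis genes were lower in 19 of 21 (median -1.38) and replication genes in 13 of 25 (median -0.83). Core macrophage genes averaged 9.8, 9.92 and 9.62 in wildtype and 10.06, 9.98 and 10.01 in knockout samples.

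Bub1b stood at 5.81, 6.28 and 5.88 in wildtype and 4.0, 3.08 and 3.49 in knockout kidney F4/80high macrophages (-2.47, SE 0.26, 5.53-fold, adjusted p = 1.44e-10). Cenpe, a motor that aligns chromosomes, went from 6.13, 5.96 and 5.6 to 4.05, 3.6 and 3.71 (-2.11, 4.3-fold, adjusted p = 3.56e-08). Mki67 went from 7.75, 7.84 and 7.15 to 6.42, 5.26 and 5.47 (-1.86, SE 0.31, 3.64-fold, adjusted p = 1.67e-05). No samples overlapped in these genes. Top2a differed by -1.83 (adjusted p = 2.78e-05).

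Of the replication genes in these cells, Mcm3 went from 6.85, 6.75 and 6.94 to 5.7, 6.0 and 5.71 (-1.04, SE 0.16, adjusted p = 5.64e-06), Chek1 differed by -1.47 (adjusted p = 6.11e-05) and Cdc45 by -1.19 (adjusted p = 4.66e-05). Licensing genes were lower in 6 of 12, and nucleotide supply genes in 1 of 4 (median -0.44). Cdk1 (-0.6, adjusted p = 0.37), Mcm6 (-0.48, adjusted p = 0.332) and Rrm2 (-1.07, adjusted p = 0.27) did not pass.

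In Langerhans cells 32 of 46 members were higher and 3 lower in the knockout, against 16.6% and 10.4% of all genes, with a median of 1.12 (2.17-fold) beside -0.01 over all genes. The mean of the members was 4.34, 4.28 and 4.26 in wildtype and 5.0, 5.23 and 5.48 in knockout samples, with no overlap. Dut went from 4.6, 4.02 and 4.19 to 5.66, 5.99 and 5.91 (1.58, SE 0.19, 2.99-fold, adjusted p = 6.67e-10), and Mcm6 from 4.54, 4.96 and 4.41 to 5.61, 6.25 and 6.62 (1.52, adjusted p = 8.71e-08). Kif20a went from 3.07, 2.88 and 2.77 to 4.39, 4.43 and 4.7 (1.6, SE 0.21, adjusted p = 6.49e-09). Cdk1 went from 4.24, 4.69 and 4.37 to 5.97, 6.36 and 6.25 (1.76, 3.38-fold, adjusted p = 1.66e-06). With the mean of its 2 probes Dut differed by 0.65. Samples of the genotypes did not overlap in these 4 genes, and Anln was 1.91 higher (3.76-fold, adjusted p = 1.06e-07).

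The 3 members that were lower in knockout Langerhans cells were licensing genes. All 3 were among the 5 that were higher in wildtype Langerhans cells than in the other residents. Both comparisons use the same wildtype Langerhans samples, so these calls are not independent. Cdt1 went from 7.14, 6.81 and 7.16 to 5.82, 6.63 and 6.64 (-0.68, SE 0.22, adjusted p = 0.0147), and Cdc6 from 4.14, 4.13 and 4.9 to 3.59, 3.51 and 3.94 (-0.72, adjusted p = 0.0191). Mcm10 differed by -0.63 (adjusted p = 0.021), with samples that overlapped. With median centring none of the 3 passed (Cdt1 at -0.56, Cdc6 at -0.6 and Mcm10 at -0.52), and in a fit of the 2 groups alone only Cdt1 did. Cdt1 and Cdc6 did not pass without wildtype replicate 3 or knockout replicate 1, Cdt1 without wildtype replicate 1, Mcm10 without wildtype replicate 2, and Mcm10 and Cdc6 without knockout replicate 2. Mki67 had 7.84, 7.82 and 8.02 in wildtype and 7.68, 7.66 and 7.77 in knockout samples (-0.19, adjusted p = 0.731). Keratinocyte genes were higher in 5 of 7 and lower in 1 (6.77, 7.0 and 6.85 against 8.14, 7.83 and 8.47), and dendritic cell genes were lower in 3 of 6. Their part in the members' values was not tested.

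Of the members, 21 were higher in knockout Langerhans cells and lower in knockout kidney F4/80high macrophages. Over all genes 16.6% were higher in the former and 2.19% lower in the latter, and genes with both calls were not counted. Each call alone was made for 32 of the 46 members, so a large overlap follows from these counts. No member was without a call in all 13 knockout comparisons, since all 46 were called in adult liver CD11bhigh macrophages.

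Adult microglia and Kupffer cells showed smaller shifts. In microglia 11 members were lower and 3 higher in the knockout (8.71% and 5.85% of all genes), with a median of -0.21. Mcm3 stood out, at 5.86, 6.18 and 6.21 in wildtype and 4.79, 4.64 and 4.01 in knockout samples (-1.6, SE 0.16, 3.04-fold, adjusted p = 2.87e-12). Nusap1 went from 4.31, 4.36 and 4.52 to 3.63, 3.12 and 3.28 (-1.05, adjusted p = 0.000313), and neither gene overlapped. Cenpf (0.66, adjusted p = 0.0386), Dut (0.62, adjusted p = 0.017) and Pola1, the catalytic subunit of polymerase alpha (0.63, adjusted p = 0.0333), were higher, and their samples overlapped. None of these 3 passed without wildtype replicate 1 or in a fit of the 2 groups alone, 1 passed with median centring, and Dut did not pass with the mean of its probes (0.16).

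The count of lower members in microglia was 19 without wildtype replicate 1, 6 without wildtype replicate 2 or knockout replicate 3, 3 without wildtype replicate 3, 3 in a fit of the 2 groups alone and 17 with array weights. Mki67 differed by -0.77 (adjusted p = 0.0845). Microglia marker genes were lower in 4 of 8 (9.72, 9.73 and 9.91 against 7.66, 7.71 and 7.74), whose part in the members' values was not tested.

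In adult Kupffer cells 5 members were lower and 1 higher (7.39% and 4.49% of all genes), shares near those of all genes, with a median of -0.15. Tyms, the thymidylate synthase, went from 4.92, 4.66 and 5.46 to 4.26, 3.93 and 3.8 without overlap (-1.02, adjusted p = 0.00684). Cdk1 differed by -0.96 (adjusted p = 0.0198) and Mcm2 by 0.66 (adjusted p = 0.0314), both with overlap. The lower count was 1 without wildtype replicate 1 or knockout replicate 2, 2 without wildtype replicate 2, and 0 with array weights or a fit of the 2 groups alone. Endothelial genes were higher in 9 of 10 in the knockout (5.06, 5.11 and 6.72 against 7.3, 7.72 and 7.33) and B cell genes in 4 of 8, and their part was not tested.

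In the embryo at most 13 of 46 members were called in any knockout comparison. Differences above 0 were found for 45 members in E14 microglia and for 42 in E14 Kupffer cells. In E14 microglia 13 of 46 were higher and none lower (8.3% of all genes were higher), with a median of 0.5 (1.41-fold); 11 of the 13 belonged to replication. Dut went from 5.72, 5.79 and 6.09 to 6.99, 7.0 and 7.14 (1.18, SE 0.19, 2.26-fold, adjusted p = 3.49e-06), Mcm4 from 7.45, 7.23 and 7.12 to 8.17, 8.16 and 8.07 (0.87, adjusted p = 8.04e-05) and Cdc6 from 5.36, 4.88 and 4.86 to 6.06, 6.22 and 6.14 (1.11, adjusted p = 0.0005). These samples did not overlap. The mitosis genes that passed were Kif23 (0.87, adjusted p = 0.0233) and Anln (0.8, adjusted p = 0.0421), while Mki67 differed by 0.29 (adjusted p = 0.66). With the mean of its 2 probes Dut was 0.63 higher and still passed.

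In E14 microglia 30 were higher in a fit of the 2 compared groups alone, 23 with array weights, and 7 and 8 without wildtype replicates 2 and 3. Neutrophil precursor genes were higher in 10 of 12 (2.73, 4.25 and 6.1 in wildtype against 6.54, 7.32 and 7.11 in knockout samples) and monocyte genes in 6 of 6, while microglia genes were lower in 4 of 8 (9.06, 9.1 and 8.99 against 7.06, 6.65 and 6.83). Their part in the members' values was not tested.

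In E14 Kupffer cells 9 of 46 were higher and none lower (13.2% of all genes were higher), with a median of 0.41; a fit of the 2 groups alone gave 19. Cdk1 went from 8.37, 8.42 and 8.42 to 9.57, 9.31 and 9.51 (1.06, SE 0.29, adjusted p = 0.00419), and Dut from 7.14, 7.36 and 7.27 to 8.36, 7.91 and 8.38 (0.96, adjusted p = 8.29e-05), both without overlap. Dut did not pass with the mean of its 2 probes (0.45). Core macrophage genes were lower in 8 of 9 there (9.42, 9.7 and 9.72 against 8.05, 8.05 and 7.7), Kupffer cell genes in 6 of 8, and progenitor genes were higher in 5 of 9 (5.3, 5.87 and 5.49 against 6.81, 6.42 and 6.51). Their part was not tested. Dut, Mcm4 and 4 other members were higher in knockout microglia and in knockout Kupffer cells at E14. Over all genes 8.3% and 13.2% were higher there, and genes with both calls were not counted.

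In liver CD11bhigh macrophages at E14, 3 members were lower and none higher (8.29% of all genes were lower). They were Mcm3, at 8.56, 8.57 and 8.48 against 8.05, 7.86 and 8.03 (-0.55, adjusted p = 0.0134), Gins2, at 8.27, 8.2 and 8.19 against 7.44, 7.31 and 7.12 (-0.93, adjusted p = 0.0169), and Cdt1 (-0.63, adjusted p = 0.0403). In a fit of the 2 groups alone 13 were lower and 11 higher, while array weights gave 8 lower. The lower count was 0 without knockout replicate 2 and 1 without wildtype replicate 1. Neutrophil precursor genes averaged 9.69, 9.89 and 9.92 in wildtype and 9.8, 9.68 and 9.86 in knockout samples at this stage, and mature neutrophil genes 7.53, 7.67 and 7.86 against 9.48, 9.6 and 9.44. Core macrophage genes were lower in 5 of 9 (6.47, 6.26 and 6.42 against 4.97, 4.54 and 4.93). Basophil and mast cell genes were lower in 5 of 6, progenitor genes in 4 of 9 and monocyte genes in 3 of 6. Erythroid genes were higher in 2 of 7. Their part in the members' values was not tested.

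In E14 kidney CD11bhigh macrophages Cdc45 alone was called, at 6.95, 7.03 and 6.49 against 7.48, 7.55 and 7.52 (0.7, adjusted p = 0.014), against 5.92% of all genes that were higher. It did not pass in a fit of the 2 groups alone, nor without wildtype replicate 3 or knockout replicate 2, and 2 members passed without wildtype replicate 1. Neutrophil precursor genes were higher in 8 of 12 in this gate (7.11, 6.43 and 4.0 against 8.91, 8.83 and 7.6) and mature neutrophil genes in 7 of 10, while core macrophage genes were lower in 8 of 9 and basophil and mast cell genes in 6 of 6. Their part was not tested. In E14 kidney F4/80high macrophages none was called (1.97% of all genes, 0.591% higher and 1.38% lower), with a median of -0.18. In A1 none was called (3.36% of all genes, 0.591% higher and 2.77% lower). In A2 Dut was higher, at 7.85, 7.89 and 7.7 against 8.5, 8.53 and 8.52 (0.71, SE 0.19, adjusted p = 0.00792), and the ligase Lig1 lower, at 8.61, 8.28 and 8.26 against 7.62, 7.69 and 7.55 (-0.76, SE 0.22, adjusted p = 0.0116), against 3.77% and 6.28% of all genes. Dut did not pass with the mean of its 2 probes (0.17), and Lig1 did not pass without wildtype replicate 1 or knockout replicate 3.

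Whether the knockout effect differed between ages was tested as the adult difference minus the E14 difference. In liver CD11bhigh macrophages it differed upward in all 46 members (9.18% of all genes) with a median of 2.76 (6.79-fold). Ncapd2 had an excess of 3.5 (SE 0.31, adjusted p = 3.94e-13), Kif11 of 4.12 (SE 0.41, adjusted p = 7.75e-12) and Mcm3 of 2.29 (SE 0.23, adjusted p = 1.26e-11). In kidney CD11bhigh macrophages it differed upward in 35 members (7.49% of all genes), with a median of 1.43, led by Mcm3 (1.48, adjusted p = 4.3e-06), Mcm10 (1.76, adjusted p = 3.23e-05) and Anln (2.19, adjusted p = 5.25e-05).

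The effect differed downward in 19 members in microglia (6.8% of all genes), led by Mcm3 (-1.83, adjusted p = 1.64e-08). It did so in 11 members in Kupffer cells (10.5% of all genes), with Mcm4 at -1.32 (adjusted p = 3.64e-05) and Cdk1 at -2.02 (adjusted p = 0.000253). In kidney F4/80high macrophages 9 members differed downward (0.456% of all genes), among them Bub1b (-2.41, adjusted p = 8.52e-05) and Cenpe (-2.15, adjusted p = 0.000827). The microglia count was 8 without adult wildtype replicate 3 and 12 without adult knockout replicate 1 or with only the compared groups. The Kupffer count was 7 without E14 wildtype replicate 1 or with array weights, and 4 in a fit limited to these groups. The kidney count was 2 without adult wildtype replicate 2 or E14 wildtype replicate 1, 3 without adult knockout replicate 3, E14 wildtype replicate 2 or E14 knockout replicate 2, and 5 without E14 knockout replicate 1.

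Seen along age within the knockout, the fall from E14 to adult included 46 of 46 members in microglia (median -3.27, 9.68-fold; 22.1% of all genes fell), Kupffer cells (-3.35, 10.2-fold; 28.8%) and kidney F4/80high macrophages (-2.71, 6.53-fold; 17.8%). Top2a in knockout microglia went from 8.42, 8.54 and 8.35 to 2.76, 4.03 and 3.11 (-5.14, SE 0.31, 35.2-fold, adjusted p = 9.69e-22). In knockout kidney CD11bhigh macrophages 35 members fell (17.8% of all genes), by a median of 1.06, and in knockout liver CD11bhigh macrophages 22 (10.1%), by a median of 0.69.

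The 22 that fell in knockout liver CD11bhigh macrophages were mostly replication genes (17 of 25, median -0.86), with 5 of 21 mitosis genes (median -0.46). Mcm4 fell from 8.61, 8.5 and 8.55 to 7.46, 7.3 and 7.27 (-1.21, adjusted p = 3.98e-08), and Cdk1 by 0.81 (adjusted p = 0.0386). Mki67 had 9.79, 9.78 and 9.63 at E14 and 9.62, 9.11 and 9.32 in adults (-0.38, SE 0.31, adjusted p = 0.465), with every adult sample below those of E14. A fit of the 2 groups alone gave 34, and the count was 13 and 14 without adult knockout replicates 2 and 3.

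Other genes of the pathway were counted in the same comparisons, where the shares over all genes in the knockout were 9.19% higher and 7.56% lower in the liver CD11bhigh gate, 6.94% higher in the kidney CD11bhigh gate, 16.6% higher and 10.4% lower in Langerhans cells, and 2.19% lower in kidney F4/80high macrophages. Of 36 further genes of the origin, the replication fork and the sliding clamp, 27 were higher and 2 lower in knockout liver CD11bhigh macrophages (median 1.06), 16 were higher in knockout kidney CD11bhigh macrophages, 14 were higher and 5 lower in Langerhans cells (median 0.44), and 8 were lower in knockout kidney F4/80high macrophages. Of 53 further mitosis genes, 52 were higher in the knockout liver gate and 1 lower (median 3.16), 44 were higher in the kidney CD11bhigh gate (median 1.37), 30 were higher and 1 lower in Langerhans cells, and 33 were lower in kidney F4/80high macrophages (median -0.97). From E14 to adult in wildtype cells, 49 to 52 of the 53 mitosis genes and 23 to 36 of the 36 origin and fork genes fell, depending on the population, against 11.7% to 20.6% of all genes. Nuf2, which ties kinetochores to microtubules, was 4.28 higher in knockout liver CD11bhigh macrophages (adjusted p = 1.28e-21). Cenpa, the histone of the centromere, went against the list in knockout Langerhans cells (-2.46, SE 0.22, adjusted p = 2.59e-14). In the wildtype Cenpa was 3.75 higher there than in the other 3 residents (adjusted p = 5.47e-28). Both Cenpa values use the same wildtype Langerhans samples and are not independent.

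Of 19 E2F, MYB and FOXM1 family genes and their partners, 10 were higher in knockout liver CD11bhigh macrophages (9.19% of all genes). In knockout kidney CD11bhigh macrophages 9 were higher (6.94% of all genes), and in knockout kidney F4/80high macrophages 5 were lower (2.19%). Foxm1, an activator of mitosis genes, was 3.02 higher in the knockout liver gate (adjusted p = 2.49e-16) and differed by -1.2 in kidney F4/80high macrophages (adjusted p = 0.000493). From E14 to adult 8 to 14 of the 19 fell in the wildtype populations, against 11.7% to 20.6% of all genes. In knockout Langerhans cells 5 were higher and 1 lower, against 16.6% and 10.4% of all genes, with the pocket protein Rbl2 at 1.74 (adjusted p = 2.39e-13).

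Of 8 inhibitors and regulators of cyclin-dependent kinases, Cdkn3, a phosphatase that itself peaks in dividing cells, fell with age in all 5 wildtype populations (-2.46 in microglia, -3.0 in Kupffer cells, -2.31 in kidney F4/80high, -3.46 in liver CD11bhigh and -2.76 in kidney CD11bhigh macrophages). Cdkn1b (p27) rose in 4 of them, by 0.96 in microglia, 1.39 in kidney F4/80high, 0.98 in liver CD11bhigh and 1.56 in kidney CD11bhigh macrophages. Cdkn1a (p21) was 3.07 higher in wildtype Langerhans cells than in the other three residents (adjusted p = 1.64e-16), at 11.16, 11.06 and 11.23, and stood at 11.27, 11.11 and 11.01 in knockout Langerhans cells. It rose by 2.08 in maturing liver CD11bhigh macrophages (adjusted p = 1.28e-07) and fell by 1.5 in Kupffer cells.

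In the knockout, 5 of these 8 were higher in Langerhans cells, against 16.6% of all genes. They were Cdkn1b (0.97, adjusted p = 0.000185), Cdkn2b (0.78), Cdkn2c (1.52, adjusted p = 3.52e-05), Cdkn2d (1.7, adjusted p = 1.37e-07) and Cdkn3 (1.49). In liver CD11bhigh macrophages Cdkn3 (3.42, adjusted p = 1.25e-17), Cdkn2c (2.77, adjusted p = 1.19e-11) and Cdkn2d (0.95) were higher and Cdkn1a lower (-0.91, adjusted p = 0.0351). Cdkn3 differed by -1.6 in kidney F4/80high macrophages (adjusted p = 5.73e-06) and by 1.65 in kidney CD11bhigh macrophages, where Cdkn2c was 1.02 higher. In adult microglia 4 of the 8 were lower and 0 higher (median -0.69), against 8.71% of all genes that were lower. The knockout effect in microglia differed downward between E14 and adults in 5 of the 8 (median -1.16), against 6.8% of all genes.

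Across the 27 group means the members ran together: 43 of 46 correlated above 0.9 with the mean of the members (median Pearson r = 0.977). The groups share their amplification and the large difference between embryo and adult. Tpx2, a spindle assembly factor, was nearest to the mean (0.995), and Kif23 (0.881), Cdt1 (0.883) and Ccne1 (0.9) were farthest from it, followed by Mki67 (0.901). Of the tested genes outside the list, those most like the mean were Cenph (0.994), Melk, Cip2a and Smc2 (0.993), Cdca8 and Hmmr (0.991), Mad2l1 (0.99), Chaf1a and Dtl (0.989) and Topbp1 (0.988).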

How the data were processed

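RNA of sorted mouse cells was amplified and hybridised to 81 Affymetrix arrays. The deposited values are log2 signals for 41345 probes, which the authors made with RMA. The submitters' processing notes name RMA and the Affymetrix Expression Console. The genome build and the tool versions were not given in the sources used here. Tissues were digested with collagenase and cells were sorted by flow cytometry before RNA extraction and amplification, per the labels' protocols. RMA scales arrays to one another, so a change shared by all genes would not show; array medians were 2.94 to 3.19. Precision is limited by the number of arrays. Samples were grouped by population, stage and genotype. A2 knockout replicate 2 had 2 array runs (Pearson r = 0.9843 between them), which were averaged, leaving 80 samples.

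Of the probes, 23521 have 1 gene symbol, 1814 several and 16010 are not in the probe table. Only probes with 1 symbol were used, with the brightest probe standing for a gene; 4 members had more than 1 probe. A gene was tested where at least 2 arrays exceeded 3.041, the 50th percentile of all values. A group-means model over all samples was fitted with limma 3.58.1 in R 4.3.3 (eBayes with a trend, 53 residual degrees of freedom), and two-sided p-values were adjusted over 17099 genes by Benjamini-Hochberg at 0.05. The spread is pooled over all groups. The code was tested on simulated data. Python 3.11.15 with pandas 2.3.3 searched the promoters and made the counts, and matplotlib 3.10.9 drew the plots.

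Named with values were, per comparison and in each of replication and mitosis, up to 4 members with the smallest adjusted p and no overlap of samples, members called against the majority, and Mki67, Top2a, Cdk1, Mcm3, Mcm6 and Rrm2, given where they bear on a result; per pathway list up to 2 genes, and the inhibitors of cyclin-dependent kinases. The members, the pathway lists and the marker lists were chosen with earlier results of these data known. A few further members were named after their values were seen, to describe a role. Promoters were chosen by the number of motif matches, with the added condition that a window touches no annotated gene. Alternatives were quantile normalization, median centring, no filter on dim probes, the mean of a gene's probes, array weights, fits limited to the groups compared, a replicate block, and each sample left out. The labels do not say whether samples with the same number share an animal. Over 89 pairs with the same number in their titles, in 32 comparisons, deviations correlated from -0.176 to 0.386 (median -0.004), and in 0 comparisons was every pair above 0.1, so no block was used.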

Additional observations from a re-analysis of the deposited data

Results flagged for a closer look

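The knockout effect differed between adults and E14 by the test of the difference itself. In microglia 19 members differed, all downward (6.8% of all genes), among them Cdk1 (-1.2), Mcm3 (-1.83), Mcm6 (-1.1), Rrm2 (-1.96) and Top2a (-1.58). In Kupffer cells 11 differed downward (10.5% of all genes), with Cdk1 at -2.02 and Mcm6 at -0.97. In kidney F4/80high macrophages 9 did (0.456% of all genes), with Mki67 at -1.69.

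In liver CD11bhigh macrophages 46 members differed, all upward (9.18% of all genes). Cdk1 differed by 3.76, Mcm3 by 2.29, Mcm6 by 2.34, Mki67 by 2.75, Rrm2 by 3.59 and Top2a by 3.52. In kidney CD11bhigh macrophages 35 differed upward (7.49% of all genes). Cdk1 was at 1.88, Mcm3 at 1.48, Mcm6 at 1.42, Mki67 at 1.23, Rrm2 at 1.84 and Top2a at 1.71.

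In some populations of the same age the knockout differences in the mean of the 46 members had opposite signs, with no overlap of wildtype and knockout samples. At E14 the knockout mean differed by 0.53 in microglia and by 0.41 in Kupffer cells, and by -0.18 in kidney F4/80high macrophages, where no member passed the test. In adults it differed by -1.08 in kidney F4/80high macrophages, and by 0.94 in Langerhans cells, 2.72 in liver CD11bhigh and 1.4 in kidney CD11bhigh macrophages. The difference between these populations was not tested.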

How the results depend on the processing

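Among the members named by the rule, no called one changed direction in any alternative run. Other called members were not checked for this. Fits of the compared groups alone without a block, and the run without the filter on dim probes, leave each difference unchanged by construction. Only the other runs could show a change of direction. The share of all genes called in each alternative run is not given here. Counts from these runs therefore do not tell a move of the members from a move of all genes. The counts of called members moved most when only the compared groups were fitted. For knockout against wildtype they became 1 higher in A1, 2 lower in A2, 30 higher in E14 microglia, 19 higher in E14 Kupffer cells, 13 lower in E14 liver CD11bhigh, 0 in E14 kidney CD11bhigh, and in adults 3 lower in microglia, 0 in Kupffer cells, 19 lower in kidney F4/80high and 13 higher in kidney CD11bhigh macrophages. The steps gave 13 from E8 to A1, 2 lower and 4 higher from A1 to A2, 33 from A2 to Kupffer cells and 19 to kidney F4/80high macrophages, and knockout liver CD11bhigh maturation 34. Age differences of the effect gave 12 in microglia, 4 in Kupffer cells and 3 in kidney F4/80high macrophages, and the gates 40 (E14 liver), 2 (adult liver) and 13 (adult kidney). With array weights the knockout counts were 23, 14, 1 and 8 in E14 microglia, Kupffer cells, kidney F4/80high and liver CD11bhigh macrophages, and 17 and 0 in adult microglia and Kupffer cells; A2 to Kupffer cells gave 27, the age differences 7 (Kupffer) and 15 (kidney F4/80high), and the E14 liver gate 37. Without the filter on dim probes E8 to A1 gave 2 and the kidney F4/80high age difference 5; quantile normalization gave 1 for E8 to A1, and the mean of a gene's probes 0 for A1 to A2. The cause was not tested.

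With each sample left out in turn, the knockout counts ran from 0 to 1 (A2, lower), 7 to 11 (E14 microglia), 0 to 2 (E14 liver CD11bhigh), 0 to 2 (E14 kidney CD11bhigh), 3 to 19 (adult microglia) and 1 to 7 (adult Kupffer cells). E8 to A1 gave 1 to 2, A2 to kidney F4/80high 2 to 8, knockout liver CD11bhigh maturation 13 to 22, resident microglia 18 to 32 and Kupffer cells 6 to 22, and the age differences 8 to 26, 7 to 16 and 2 to 12 in microglia, Kupffer cells and kidney F4/80high macrophages. The adult counts stayed at 26 to 31 in Langerhans cells, 45 to 46 in liver CD11bhigh and 39 to 43 in kidney CD11bhigh macrophages. The replicate block, which pairs samples by number, gave 33 lower in knockout kidney F4/80high macrophages and 31 higher in Langerhans cells, and moved no count by over 1.5 times. A replicate block by the numbers in the titles, chosen after seeing the data and fitted to the compared groups alone, gave 40, 2 and 13 in the E14 liver, adult liver and adult kidney gates, the same counts as that fit without the block, and 0 in the E14 kidney gate. In the E14 liver Xist followed the number across gates (9.71, 5.76 and 9.21 in wildtype Kupffer cells, 9.71, 5.92 and 8.82 in CD11bhigh macrophages). Wildtype E14 microglia had 10.21, 7.39 and 9.21. In the E14 knockout Xist was 9.24, 8.72 and 3.14 in Kupffer cells, 9.4, 9.29 and 3.21 in liver CD11bhigh macrophages and 9.71, 9.15 and 3.16 in microglia. Knockout E14 kidney had 9.33, 5.01 and 8.04 in CD11bhigh and 9.53, 5.17 and 8.44 in F4/80high macrophages. These values are a hint from the data that populations share embryos, while the main fit treated all samples as separate. Median centring shifted the median of all genes from -0.01 to 0.11 in knockout Langerhans cells and from -0.03 to -0.2 in Langerhans cells against E8. Members near the array's background in adults limit how far a fall can be measured.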
